A study of Solanum lycopersicum with 6 samples.

Results

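Among the regions whose DNA methylation was listed as different between nrpd1 and wild-type (WT) tomato embryos, CHH regions with more methylation in nrpd1 were rare near genes, and the genes that carried one are described here. CHH stands for a cytosine followed by 2 bases other than G. A gene was included when at least 1 CHH region assigned to it was higher in nrpd1 and was annotated as promoter (within 2 kb of the transcription start), exon, intron or UTR. This gave 203 of the 27473 genes named in the tables (0.739%), with 237 such regions out of 3191 CHH gains in all. The genes were thus chosen by the CHH difference itself, so the CHH gains are given as a description and support nothing further. CG and CHG methylation played no part in the choice.

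The embryos were of the dwarf cultivar Micro-Tom, taken 21 days after flowering. There were 3 bisulfite libraries from plants with a knockout of SlNRPD1 (nrpd1) and 3 from WT plants, and the labels do not give the nature of the knockout, the number of lines or whether the libraries came from separate plants. The tables hold 1 mean level per genotype and region and no value for a single library, and read depth is unknown. No error between libraries can therefore be attached to any level, and no test between the genotypes was made. A knockout cannot be checked in methylation levels, so the genotypes rest on the labels. The ranges given after shares are Wilson 95% intervals. They reflect counting error alone and take genes or regions as independent, which neighbours may not be.

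NRPD1 forms the catalytic core of RNA polymerase IV together with its partner subunits. This plant polymerase makes the precursors of small interfering RNAs, which guide methyltransferases to matching DNA, and loss of this route is known for lowering CHH methylation at the edges of genes and in short transposons. In Arabidopsis a separate route, in which chromomethylases bind histones that carry a repressive methyl mark, places CHG methylation and much of the CHH methylation of long transposons without RNA polymerase IV. CG methylation is copied after replication by a dedicated maintenance enzyme. The 3 contexts are read at different cytosines, so a CHG or CG level in the same stretch of DNA is a separate measurement from the CHH level, made in the same libraries.

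The gene IDs of the tables are not paired with names or products in the files, and 0 of the 27473 IDs were found in the RefSeq gene table at hand. No gene is therefore given a name or a role, and no group of genes by function could be formed. Most genes are instead given by the position of their region in the assembly SL4.0. The assigned gene was also not always the gene in which a region lay. Of the 116 exon or intron regions that chose the genes, 22 (18.97%) were annotated in a different gene from the one assigned, at distances of 1376 to 31819 bp from the assigned gene's start, and 2 of the 15 UTR regions lay outside the assigned gene. In the CHH losses in exons and introns this share was 8.87%. Without such regions 189 of the 203 genes remained.

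The 237 CHH gains were small and close to the smallest listed difference, which was 10 points. Their median level was 24.7% in nrpd1 and 13.2% in WT, with a median difference of 11.1 points (quartiles 10.4 and 12.1) and a median ratio of 1.84. Of them, 172 (72.6%) differed by less than 12 points and 5 by 20 points or more. The median region was 275 bp wide and held 76 CHH cytosines. Gene bodies held 131 of the regions and promoters 106, with 63 promoter regions within 1 kb of the start and 43 between 1 and 2 kb. The promoter label within 1 kb also took in regions over the start and some that began just inside the gene. Promoter and body are therefore annotation labels here and do not divide upstream from transcribed sequence. In bodies, 62 were in introns, 54 in exons, 10 in 3′ UTRs and 5 in 5′ UTRs. Levels were alike across these features. The medians were 24.7% in nrpd1 and 13.1% in WT for promoters, and 24.6% and 13.3% for bodies. Most genes, 177 of 203, had a single CHH gain in promoter or body, and 26 had between 2 and 4.

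**Figure D1:**
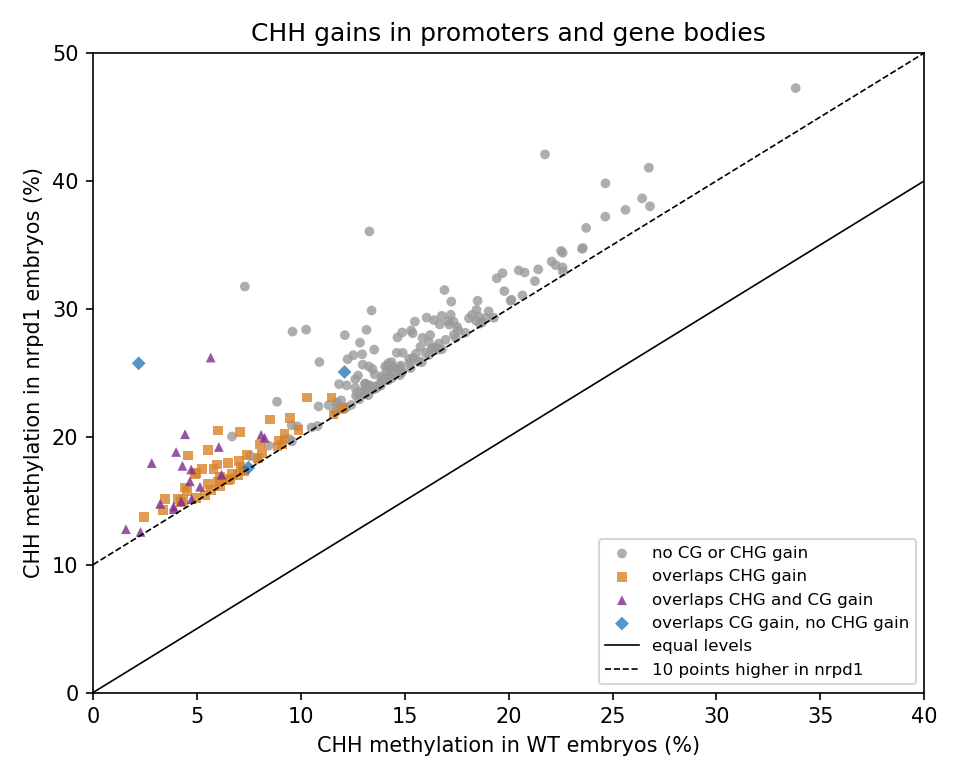
CHH methylation (%) of the 237 CHH gains in promoters and gene bodies, nrpd1 on the vertical and WT on the horizontal axis, 1 point per region, coloured by overlap with a CHG or CG gain. Most points lie just above the dashed line that marks 10 points more in nrpd1, and the regions that overlap a CHG gain lie at the low end of both axes.

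A few genes stood well above that line. The greatest CHH difference was in Solyc09g005450.1, a gene of 886 bp on chromosome 9, where a region of 204 bp with 30 CHH cytosines over the transcription start (chr9:326793-326996) had 31.7% in nrpd1 and 7.31% in WT, 24.4 points apart. No CG or CHG region was listed in the promoter or body of this gene. The next was a region of 303 bp over the start of a gene on chromosome 4 (chr4:59627907-59628209), with 25.7% in nrpd1 and 2.20% in WT. There, 2 short CG regions also gained, with 44.3% and 45.1% in nrpd1 against 13.0% and 13.4% in WT, and no CHG region was listed. In an intron on chromosome 5 (chr5:12372547-12372619), 73 bp with 11 CHH cytosines had 36.1% in nrpd1 and 13.3% in WT.

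Solyc01g009510.2, on chromosome 1, followed in the order of CHH differences and gained in every context at one place. In its 5′ UTR (chr1:3718177-3719217) CHH methylation was 26.2% in nrpd1 and 5.66% in WT. Over almost the same bases CHG methylation was 87.3% in nrpd1 and 27.98% in WT, and CG methylation was 92.97% in nrpd1 and 60.9% in WT. Further on, in an exon, CHH methylation was 21.3% in nrpd1 and 8.51% in WT and CHG methylation was 89.3% in nrpd1 and 54.8% in WT. A promoter on chromosome 12 (chr12:60619947-60620026) was the last region to reach 20 points, with 42.1% in nrpd1 and 21.8% in WT over 80 bp. The other 5 of the 10 genes with the greatest CHH difference had gains of 15.8 to 18.6 points. They lay on chromosomes 5, 9, 10 and 12 and on unplaced sequence, which the tables list as chromosome 0. Among these 10 genes, 7 had no CG or CHG gain in promoter or body.

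At the other end, the 3 genes with the smallest CHH gains differed by 10.01, 10.01 and 10.04 points. The mildest CHH losses in promoters and bodies, which the choice of genes left out, were also just past 10 points, with 2.53% in nrpd1 and 12.5% in WT in the first of them. No listed region lay between.

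Split by what was listed for CHG methylation at the same place, the CHH gains had unlike widths and WT levels. A CHG gain was counted as overlapping when it shared at least 1 bp, and 67 of the 237 CHH gains (28.3%, interval 22.9 to 34.3) overlapped one. The share over all 3191 CHH gains was 12.5%, and over the 2954 CHH gains outside promoters and bodies it was 11.3% (10.2 to 12.5). Low WT levels were more frequent among the 237 than among the 2954. Under 5% CHH methylation in WT there were 26 and 138 regions, and between 5 and 10% there were 51 and 296. How far this accounts for the unlike shares was not tested. The 67 regions had a median CHH level of 17.4% in nrpd1 and 5.95% in WT, and a median width of 974 bp. The 170 without a CHG gain had 26.3% in nrpd1 and 14.6% in WT and a median width of 198 bp. The median difference was 11.09 points with a CHG gain and 11.05 points without one, so the median ratio was 2.96 with and 1.76 without. A CG gain overlapped 22 of the CHH gains (9.28%), against 4.76% of all CHH gains, and 19 of these 22 were also among the 67. A CHG loss or a CG loss was overlapped by 0 of the 237, which allows a share of up to 1.27%. The count was also 0 when regions within 200 bp were included. The same count was not made for the other CHH gains, so it is not read as particular to these regions.

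The overlap followed the WT level closely. Of the 26 CHH gains that had under 5% CHH methylation in WT, 25 overlapped a CHG gain and 14 a CG gain. Of the 51 between 5 and 10%, 38 overlapped a CHG gain. Between 10 and 15% it was 4 of 84, and above 15% it was 0 of 76, which allows a share of up to 3.95%. Width went the same way. All 33 regions of 1 kb or more overlapped a CHG gain, as did 23 of 35 between 500 bp and 1 kb, 9 of 81 between 200 and 500 bp, and 2 of the 88 narrower ones. Width and WT level were related across regions (Spearman's rho -0.59 over 237 regions of the same libraries). A wide region has more bases that can meet a CHG gain, and the counts are therefore also given in 2 width classes. Among regions under 500 bp, 8 of 18 with under 10% in WT and 3 of 151 with more overlapped a CHG gain. Among regions of 500 bp or more it was 55 of 59 and 1 of 9. The classes did not equalise width, since regions with under 10% in WT had a median of 277.5 bp in the narrow and 1065 bp in the wide class, against 173 bp and 579 bp for the others. The parts of width and WT level in the overlap cannot be told apart here. These limits were chosen after the values were seen. CHH gains outside promoters and bodies had the same arrangement, with 133 of 138 overlapping a CHG gain below 5% in WT and 34 of 1412 between 10 and 15%. The arrangement is therefore described for CHH gains as such and is not claimed for those in genes.

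**Figure D2:**
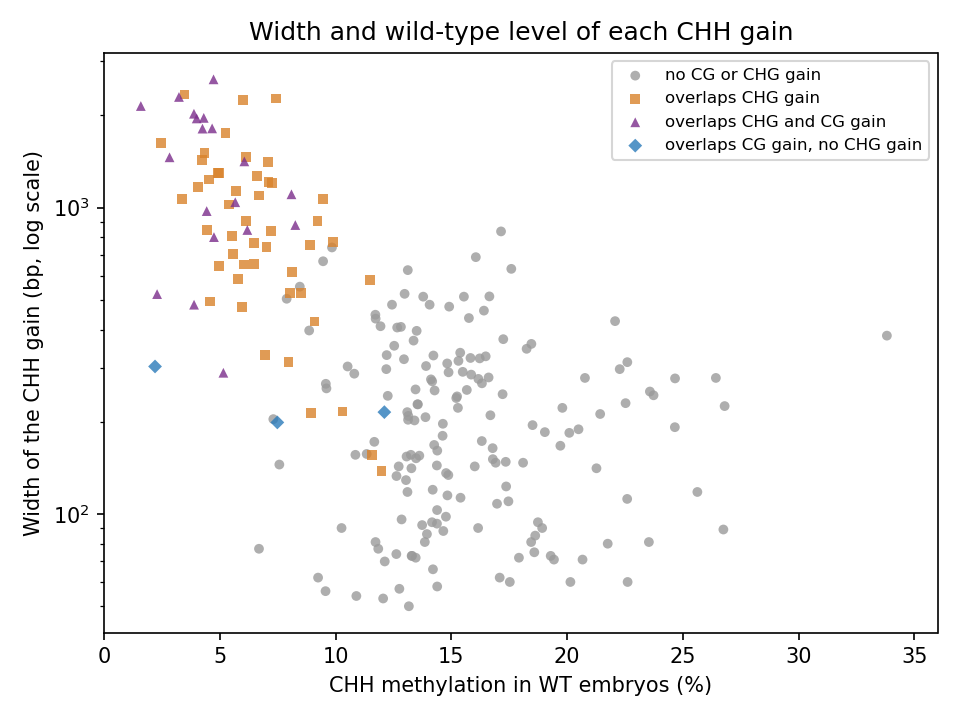
Width (bp, log scale) of each of the 237 CHH gains against its CHH methylation in WT embryos (%), coloured by overlap with a CHG or CG gain. Wide regions with a low WT level overlap CHG gains, while regions above 10% in WT are mostly narrower than 500 bp, and 4 of those 160 overlap one.

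Where the contexts met, the CHG and CG gains were far greater in points than the CHH gain. At the 67 CHH gains, the overlapping CHG region had a median of 79.2% in nrpd1 (50.9 to 90.6) and 37.7% in WT (11.8 to 69.4), with a median difference of 40.04 points, and the CHG gains covered a median of 83.2% of the CHH region. At the 22 CHH gains with a CG gain, CG methylation had a median of 91.0% in nrpd1 (44.3 to 95.9) and 56.4% in WT (13.0 to 77.1), with a median difference of 32.6 points. The lowest WT levels in CHH went with the lowest in CHG (rho 0.69 over 67 pairs of regions at shared positions). The sizes of the 2 differences were less closely related (rho 0.39), and those of CHH and CG were not (rho -0.06 over 22 pairs).

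Over whole genes, 72 of the 203 (35.5%, interval 29.2 to 42.3) had a CHG gain in promoter or body, against 3.14% of all genes named in the tables. A CG gain was listed for 24 of the 203 (11.8%, 8.07 to 17.0), against 4.82%. Of the 1957 genes that had a CHH gain assigned to them only outside promoter and body, 5.21% had a CHG gain and 3.93% a CG gain in promoter or body. These genes and the background are no like comparison, because only the 203 genes had, by their choice, a CHH gain inside the promoter or body where CHG gains were counted. In 58 of the 72 genes a CHG gain overlapped the CHH gain that chose the gene. The share depended on which CHH gains were counted. It was 89.8% of the 49 genes left when only the 50% of regions with the larger region statistic of the authors, mostly wide ones, were kept in each context, and 23.1% of the 13 genes left when only differences of 15 points or more were kept. The share over all named genes was not recomputed under either limit, so 3.14% is no background for these values. With all regions kept, the shares were also taken by position along the chromosome and by gene length. In the middle 60% of the chromosomes 36 of 91 genes had a CHG gain, or 39.6% against 5.22% of all named genes there. In the outer parts it was 32 of 93, or 34.4% against 2.35%. Of the genes shorter than 1 kb, 23.5% had a CHG gain, against 3.03% of all named genes of that length, and of the longer ones 43.4% against 3.18%. The share was thus lower in short than in longer genes of the 203, with intervals of 15.6 to 33.8 and 35.0 to 52.3. The members' CHG gains were not all at the CHH gain. Of 103 CHG gains in these 72 genes, 65 overlapped one of the 237 CHH gains and 38 did not. The median level of the 103 was 74.0% in nrpd1 and 36.2% in WT, at a median width of 781 bp. The 1071 CHG gains in promoters and bodies of all named genes had 53.1% in nrpd1 and 24.5% in WT, at 288 bp.

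**Figure D3:**
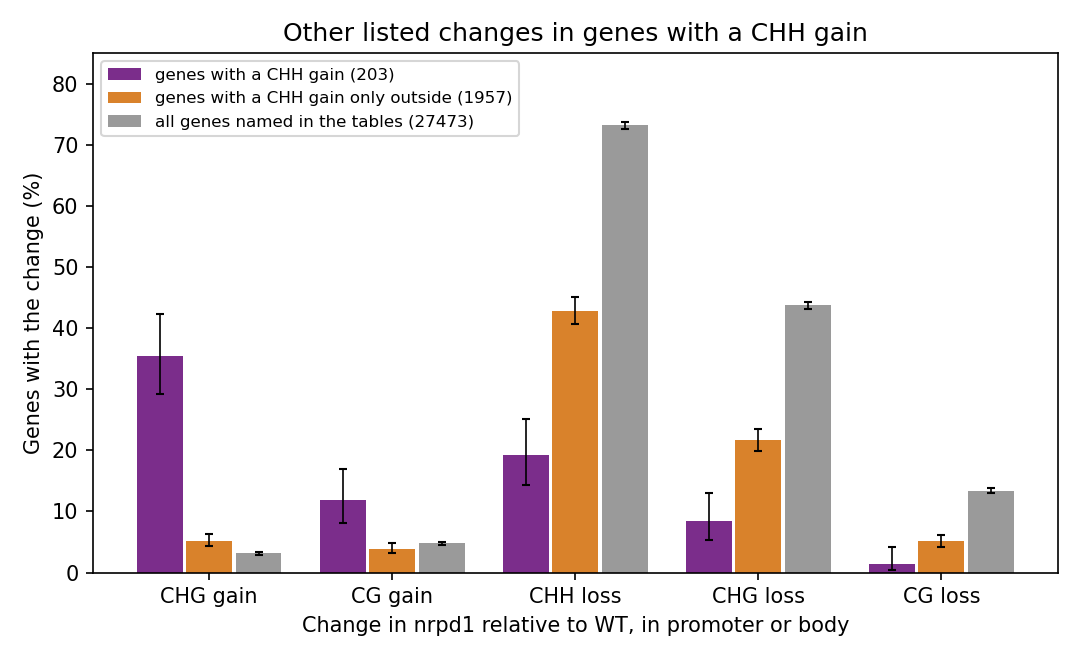
Share of genes (%) with each other listed change in promoter or body, for the 203 genes with a CHH gain there, for 1957 genes with a CHH gain only outside, and for all 27473 named genes. Bars start at 0 and error bars are Wilson 95% intervals, which cover counting error only. CHG gains reach 35.5% in the 203 genes, and CHH losses 19.2%.

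In all, 20 genes had a gain labelled promoter or body assigned to them in each of CHH, CHG and CG. The gene among them on unplaced sequence had these gains outside its own promoter and body. Its CHH gain (chr0:9226112-9226326) lay in an intron annotated to another gene. The region with the greatest difference in each context was taken for each of the 20 genes. Median levels were 17.8% in nrpd1 and 4.73% in WT in CHH, 79.5% and 26.7% in CHG, and 90.0% and 59.1% in CG. The ranges did not overlap between nrpd1 and WT in CHH (12.6 to 26.2% in nrpd1, 1.58 to 12.1% in WT) and CHG (59.4 to 87.3% in nrpd1, 17.5 to 58.1% in WT), but they did in CG (68.1 to 95.9% in nrpd1, 14.5 to 77.1% in WT). This follows from the choice of gains and is no sign of stability. The CHG region overlapped the CHH region in 18 of the 20 genes, and the CG region did so in 16. For 14 of the 20 genes no loss was listed in promoter or body in any context. The others also had a CHH loss there.

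The greatest summed gain was in a gene on chromosome 2, where a 3′ UTR region (chr2:17228690-17229211) had 12.6% CHH methylation in nrpd1 and 2.29% in WT. Its CHG region, 1724 bp wide and labelled promoter (chr2:17227449-17229172), had 82.9% in nrpd1 and 34.2% in WT. That CHG gain also covered part of a CHH loss in the promoter (chr2:17227077-17227719), with 15.1% in nrpd1 and 29.2% in WT. The CG region of this gene, in an exon, had 94.4% in nrpd1 and 14.5% in WT. CG methylation there was thus low in WT and almost full in nrpd1. Second was a gene on chromosome 7 with a region of 1459 bp labelled promoter (chr7:6651024-6652482), which began 177 bp past the transcription start, inside the gene. It had 17.9% CHH methylation in nrpd1 and 2.82% in WT, 79.7% CHG methylation in nrpd1 and 17.5% in WT, and 95.2% CG methylation in nrpd1 and 51.5% in WT. A CHH loss in an intron 354 bp further on had 14.5% in nrpd1 and 24.8% in WT. A region of chromosome 5 with the same label (chr5:8504884-8506837), which began 185 bp past the start of its gene, came next. That region had 18.8% in nrpd1 and 3.996% in WT in CHH, with CHG and CG gains of 54.7 and 50.4 points. A CHH loss in the promoter of the same gene had 22.2% in nrpd1 and 45.8% in WT. Solyc01g009510.2 followed. An exon on chromosome 10 (chr10:21590288-21591261) had the greatest CHG gain of the 20, with 85.6% in nrpd1 and 21.98% in WT, beside 20.2% CHH methylation in nrpd1 and 4.43% in WT. This gene also had 3 CHH losses, the greatest in an intron with 14.3% in nrpd1 and 31.4% in WT.

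The widest CHH gain of all 237, 2621 bp in a promoter of chromosome 2 (chr2:15095491-15098111), belonged to the next gene in this order and had 17.4% in nrpd1 and 4.72% in WT. The 4 genes after it lay on chromosomes 7 and 10. In one (chr10:52260814-52262228) CHH methylation was 19.2% in nrpd1 and 6.05% in WT and CHG methylation 75.7% in nrpd1 and 26.2% in WT. A gene on chromosome 7 (chr7:22992059-22994203) had the lowest WT level of the 237 regions, 1.58%, against 12.8% in nrpd1. In the other pair (chr10:43232594-43233075 and chr10:33167745-33169706) CHG methylation was 69.9% and 79.6% in nrpd1, against 25.4% and 27.1% in WT. The other 10 genes of the 20 had CHH gains of 10.4 to 13.0 points and CHG gains of 20.1 to 51.0 points.

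**Figure D4:**
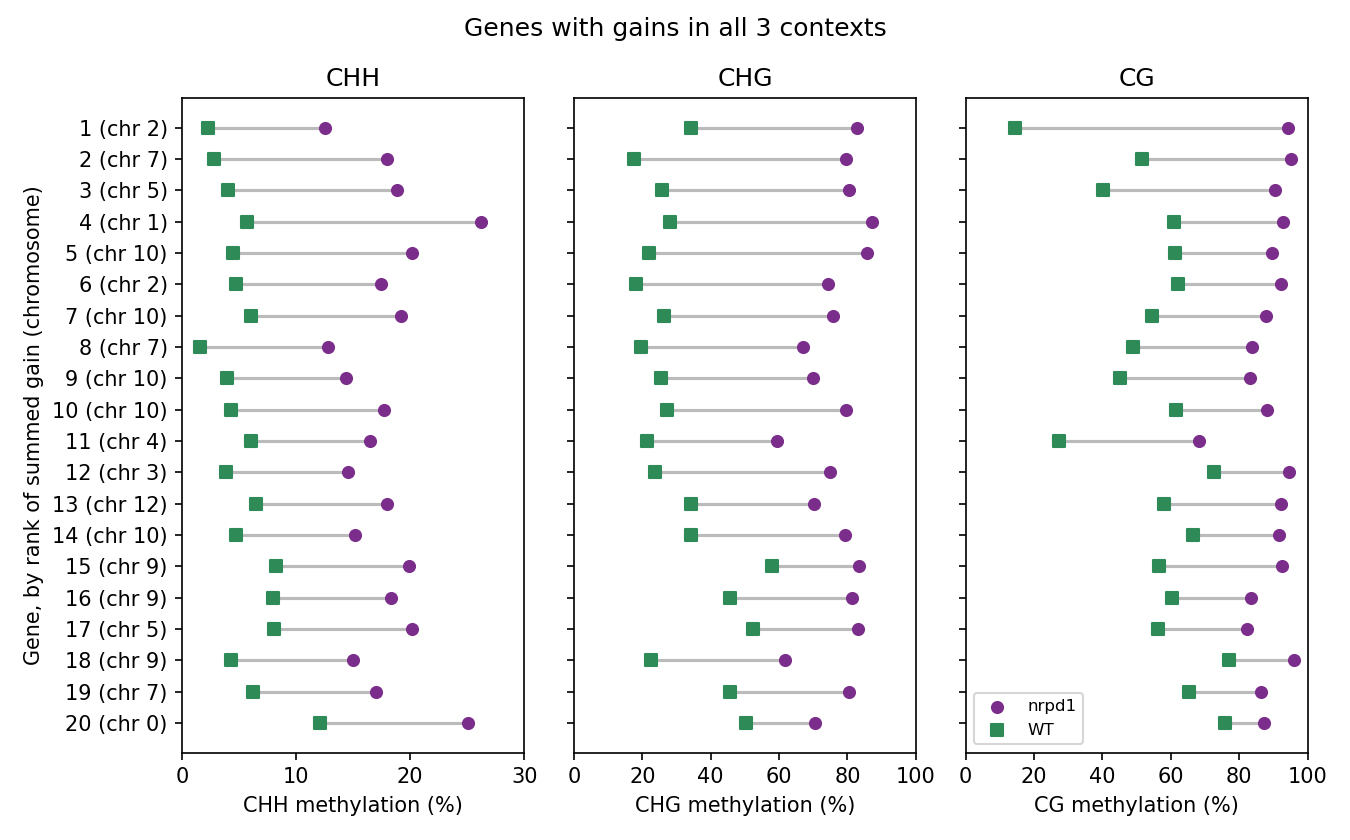
Methylation (%) in nrpd1 (circles) and WT (squares) in the region with the greatest gain per context, for the 20 genes with gains in CHH, CHG and CG, ordered by summed gain with the chromosome in brackets. The CHH axis ends at 30% and the other axes at 100%. Every gene is higher in nrpd1, by choice of the genes, and the median WT level is 4.73% in CHH, 26.7% in CHG and 59.1% in CG.

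Losses were listed for some of the same genes. CHH losses in promoter or body were present in 39 of the 203 genes (19.2%, interval 14.4 to 25.2), against 73.2% of all named genes and 42.8% of the 1957 genes with a CHH gain only outside. CHG losses were present in 17 (8.37%), against 43.7% of all named genes, and CG losses in 3 (1.48%), against 13.4%. With gene bodies alone, CHH losses were present in 7.48% of the 107 genes left. No share over all named genes was taken for bodies alone, so the 73.2% is no comparison for this value. Most genes are named in the tables because a CHH loss was assigned to them, so the background for losses is high by construction. Taking all regions in promoter or body, 103 of 127 CHG regions and 29 of 34 CG regions of the 203 genes were gains, with median differences of 29.3 and 27.4 points. Over all named genes 6.25% of the CHG and 25.6% of the CG regions were gains, and the median differences were -27.6 and -22.3 points. Losses were more frequent when regions outside promoter and body were also counted. The 203 genes then had 176 CHG gains and 124 losses, 60 CG gains and 19 losses, and 320 CHH gains and 279 losses. CHH losses were assigned to 92 genes (45.3%), CHG losses to 64 (31.5%) and CG losses to 16 (7.88%). CHG gains were assigned to 90 (44.3%) and CG gains to 39 (19.2%). No share over all named genes was taken for this count. No other change in promoter or body was listed for 105 of the 203 genes, and 52 of them had no other listed region of any kind assigned to them.

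In the 39 genes with both a CHH gain and a CHH loss, which are separate regions by the way they were called, the distance varied widely. The nearest gain and loss were 176 to 12979 bp apart, with a median of 1803 bp, and in 14 genes they were closer than 1 kb. In 24 of the 39 the gain was in the body and a loss was in the promoter. The greatest loss exceeded the greatest gain in size in 32 genes, and the reverse held in 7. In 19 of the 39 a CHG gain was listed as well, and 13 of the 17 genes with a CHG loss were among the 39.

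The greatest CHH loss was in Solyc06g059930.4, a gene of 40089 bp on chromosome 6 with 10 CHH losses in promoter or body. An intron region (chr6:35506784-35507713) had 13.4% in nrpd1 and 42.8% in WT, and a promoter region had 8.93% in nrpd1 and 27.3% in WT. Its single CHH gain, 81 bp in an intron (chr6:35510430-35510510), had 34.7% in nrpd1 and 23.5% in WT, between 2 of these losses. It was also 1 of the 3 genes with a CG loss, with 46.0% in nrpd1 and 71.9% in WT in an intron, beside a CG gain in another intron with 47.7% in nrpd1 and 30.1% in WT. A second gene on chromosome 6 (chr6:32604300-32605383) had 18.0% in nrpd1 and 45.6% in WT in its promoter, with a CHH gain of 11.3 points in an exon more than 12 kb away. Another (chr6:46048323-46049331) had 16.0% in nrpd1 and 40.5% in WT close to the start. Only 200 bp upstream, CHH methylation was 23.1% in nrpd1 and 10.3% in WT and CHG methylation 71.6% in nrpd1 and 36.1% in WT. A promoter on chromosome 4 (chr4:20457939-20459108) fell by 24.0 points and the promoter of the chromosome 5 gene with gains in every context fell by 23.6 points just before the gain.

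The greatest CG losses were in Solyc12g150124.1, on chromosome 12. CG methylation was 8.49% and 28.01% in nrpd1, against 47.1% and 64.6% in WT, in 2 intron regions, and 5.18% in nrpd1 against 39.7% in WT in the promoter (chr12:62209189-62209364). CHG methylation in that promoter was 4.61% in nrpd1 and 37.7% in WT. The CHH gain of this gene was a 71 bp stretch of an intron with 31.0% in nrpd1 and 20.7% in WT. In the third gene with a CG loss, on chromosome 7, an exon had 8.13% in nrpd1 and 33.2% in WT (chr7:60233075-60233432). The greatest CHG loss was in the promoter of a gene on chromosome 3 (chr3:6308377-6308826), with 34.1% in nrpd1 and 80.5% in WT, although a CHG region in the 3′ UTR of the same gene had 74.4% in nrpd1 and 52.1% in WT. Next came Solyc06g059930.4, where CHG methylation fell by 43.4 points in an intron, and genes on chromosomes 5, 8 and 10, where it fell by 41.6, 37.6 and 35.5 points.

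**Figure D5:**
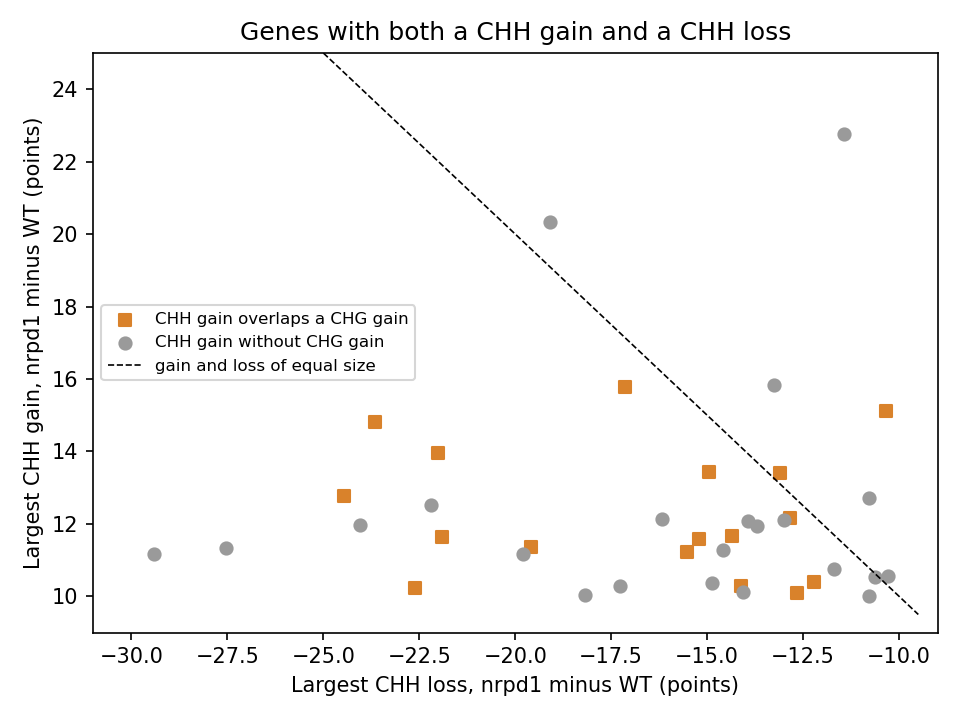
Greatest CHH gain against greatest CHH loss (points, nrpd1 minus WT) in each of the 39 genes that had both in promoter or body, coloured by whether a CHH gain of the gene overlapped a CHG gain. Points below the dashed line, 32 of the 39, have the larger loss.

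The genes were unevenly spread over the genome. Unplaced sequence held 19 of them (9.36%), although the 95 genes named there were 0.346% of all named genes. Only 1 of the 29 CHH gains on unplaced sequence overlapped a CHG gain. Of the 184 genes on the 12 chromosomes, 49.5% lay in the middle 60% of their chromosome, against 26.4% of all named genes. Gene lengths were spread to both sides, with 39.9% of the genes under 1 kb and 18.7% over 10 kb, against 24.3% and 6.43% of all named genes. CHH cytosines were denser in the CHH gains, with a median of 27.6 per 100 bp (quartiles 24.5 and 30.8), than in the CHH losses in promoters and bodies of all genes, with 21.8 (quartiles 19.6 and 24.1). The CHH gains with a CHG gain had 27.3 and those without 27.9 per 100 bp.

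Chromosome 7 held 24 of the genes and 18 of the 67 CHH gains that overlapped a CHG gain, while chromosome 11 held 11 genes and 0 such regions. Without chromosome 7 the overlap was 49 of 208, or 23.6%. On chromosome 7, 7 of the CHH gains lay within 103 kb (chr7:60048860-60152163) and were assigned to 4 genes, a stretch chosen after its values were seen. All 7 overlapped CHG gains and none a CG gain. Their CHH levels were 13.7 to 20.3% in nrpd1 and 2.44 to 9.22% in WT. The 23 CHG gains in and next to this stretch had a median of 67.7% in nrpd1 and 37.4% in WT. One of the 4 genes had 4 CHH gains, the most of any gene, but 2 of them lay more than 12 kb from it in an intron annotated to another gene. Next came 6 genes with 3 CHH gains each, 4 of them on unplaced sequence and the others on chromosomes 8 and 11. On unplaced sequence, too, many of these regions were annotated in another gene, up to 29013 bp from the start of the assigned one. Some of these genes had no CHH gain in their own promoter or body. In the 4 on unplaced sequence CHH levels were 22.5 to 27.8% in nrpd1 and 8.86 to 16.0% in WT, and no CHG gain was listed in promoter or body. In the gene on chromosome 8, 1 of the 3 CHH gains overlapped a CHG gain.

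CHH gains over the transcription start were mostly of the wide kind. Of 20 such regions, 14 overlapped a CHG gain and 7 a CG gain. Their median CHH level was 17.6% in nrpd1 and 6.33% in WT, and their median width was 1118 bp. A wide region has more bases that can meet a start, so this group favours wide regions by its choice. How far this accounts for its width and its overlaps was not tested. In introns 8 of 62 CHH gains overlapped a CHG gain, and in exons 20 of 54. Among the 26 genes with several CHH gains, 22 had none that overlapped a CHG gain, in 3 every one did, and 1 had both kinds.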

How the data were processed

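Bisulfite sequencing of 3 nrpd1 and 3 WT embryo libraries was analysed from 3 deposited tables of regions, 1 per context. Trim Galore 0.6.7 and Bismark 0.24.0 are named in the submitters' processing notes. The sources used here do not give depth, conversion rate, region caller, calling thresholds or annotation tool. The authors gave levels as a fraction per genotype, per the file headers, printed here as percentages, and the differences (nrpd1 minus WT) were recomputed in percentage points. The authors' deposited region statistic, a score, served only in 1 alternative. Listed regions had been called for their difference, so unlisted sequence may have changed less or not been assayed.

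Genes with a CHH gain were found by the assigned gene ID. Overlaps, medians and Wilson intervals were computed with Python 3.11.15, pandas 2.3.3 and SciPy 1.17.1, and the functions were tested on simulated data. The genes, and the rule for those described singly (the greatest CHH gains, gains in all contexts, most regions, greatest losses, smallest gains), were chosen with earlier results of these data known. The rule's part on products and the planned groups by function could not be applied without gene names. No genome sequence was used here.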

Additional observations from a re-analysis of the deposited data

How the results depend on the processing

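The 10 values the text rests on (the number of genes, the median CHH, CHG and CG differences, the shares of genes with other gains and losses, and the share of CHH gains overlapping a CHG gain) were recomputed in 95 alternatives. In 71 of them the value stayed within the interval of the reported one, or within 1.5 times for the number of genes. Only the median CHG and CG differences could have changed sign, and they stayed positive in each alternative that recomputed them. The number of genes and the shares have no sign, and the median CHH difference is positive by the choice of the genes. With at least 12 points required in every context, 62 genes were left, the median CHH gain was 13.3 points, 29.0% had a CHG gain, 4.84% a CHG loss, 0% lost CG methylation, and the median CHG difference was 33.9 points. With 15 points, 13 genes were left, the median CHH gain was 18.1 points, 23.1% had a CHG gain, 30.8% a CG gain and 0% lost CG methylation, and the median CHG difference was 59.3 points. With gene bodies alone, 107 genes were left, of which 26.2% had a CHG gain, 4.67% a CHG loss and 7.48% a CHH loss. With the 50% of regions that had the larger region statistic, which keeps wide regions, 49 genes were left. Of these 89.8% had a CHG gain, 24.5% a CG gain, 2.04% a CHG loss, 0% a CG loss and 12.2% a CHH loss, the median CHG difference was 35.9 points, and 94.0% of the CHH gains overlapped a CHG gain. The cause of the other shifts was not tested. In every alternative the shares were recomputed only for the genes with a CHH gain. The shares over all named genes were not, so those given above are no background for the alternatives. Counting body regions only in their annotated gene was added after seeing the data. No paired analysis was possible because the tables hold 1 mean per genotype, and for the same reason no library could be left out. Depth is unknown, so how firmly a single narrow region near 10 points is known cannot be said.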
